A study of Mus musculus with 96 samples.

Results

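The genes described here encode the constitutive proteasome: 35 of the 23955 genes of the deposited expression table, chosen by symbol as every Psma, Psmb, Psmc or Psmd gene with a number, without the immunoproteasome and thymoproteasome genes Psmb8, Psmb9, Psmb10 and Psmb11. They fall into 14 genes of the core particle (Psma1 to Psma7 and Psmb1 to Psmb7), 17 genes of the regulatory particle (Psmc1 to Psmc6 and 11 of the Psmd genes), the germline core gene Psma8, and Psmd5, Psmd9 and Psmd10, whose proteins are assembly chaperones of the regulatory particle and not part of the finished complex. The core and regulatory particle genes together are called the 31 subunit genes. No gene was chosen for its level, and all 35 averaged at least 1 TPM over the cells. TPM is abundance per transcript length, scaled to a total of 1000000 in each cell, so levels of different genes may be set side by side. A gene is called detected in a cell where it reached 1 TPM.

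The proteasome degrades proteins tagged with ubiquitin. Its core particle is a barrel of outer alpha rings, which form the gate, and inner beta rings, which hold the cutting sites; the regulatory particle caps the barrel, with a base that unfolds substrates by means of a ring of ATPases and a lid that removes the ubiquitin chains. In cells making much antigen-presenting machinery, the catalytic beta subunits are exchanged for inducible immunoproteasome subunits. Proteasome inhibitors are used as drugs in blood cancers such as multiple myeloma.

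The 96 libraries were each 1 splenocyte, with 48 taken from each of 2 mice moribund with acute myeloid leukemia, after enrichment on magnetic beads for c-Kit (CD117), the receptor of stem cell factor. Both mice were Flt3ITD/ITD;Dnmt3afl/- with MxCre: homozygous for an internal tandem duplication in Flt3, a receptor tyrosine kinase of progenitors, with one floxed and one null allele of the DNA methyltransferase gene Dnmt3a and a Cre recombinase under the interferon-responsive Mx promoter. Ages were not given, and Flt3ITD/ITD;Dnmt3afl/fl controls were not analysed here, so neither Dnmt3a nor Flt3 varies in the comparisons below. The mouse cannot be told apart from the column prefix of the table, or from any difference in round of capture or sex. With 1 animal on each side all comparisons are descriptions of these cells, with no test. SDs are over cells.

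Cells were also set apart by state: H2-Aa (a class II antigen presentation gene), S100a8 (a calprotectin gene of neutrophils) or Mpo (myeloperoxidase, a gene of granulocyte-monocyte progenitors) at 1000 TPM or more, in that order, and the rest. In mouse 1 there were 14 H2-Aa, 1 S100a8, 13 Mpo and 20 rest cells, and in mouse 2 there were 20, 10, 12 and 6. Only 4 cells passed more than 1 of the thresholds, 1 in mouse 1 and 3 in mouse 2. The S100a8 cell of mouse 1 was one of them, with S100a8 at 1251 TPM and Mpo at 34099 TPM. It took its state from the order of the thresholds. S100a8 cells 79 and 86 of mouse 2 also had Mpo at 15088 and 20561 TPM, and H2-Aa cell 68 had it at 6730 TPM. With the threshold at 500 TPM the Mpo state of mouse 1 held 19 cells and at 2000 TPM it held 11, while the H2-Aa counts did not move in either mouse. The summed level of 8 dendritic cell markers lay between 61375 and 95829 TPM in the H2-Aa cells of mouse 1 and between 22151 and 105863 TPM in those of mouse 2, against medians of 38.3 and 49.2 TPM in the rest. The summed level of 8 late neutrophil markers had a median of 433373 TPM in the S100a8 cells of mouse 2, but was 1578 TPM in the single S100a8 cell of mouse 1, where 3 of the 8 markers were seen. Kit was at 10 TPM or more in 33 of the 48 cells of mouse 1 and 22 of those of mouse 2, and in 2 of the 10 S100a8 cells of mouse 2, so not every library showed the transcript of the receptor used for selection. Of 5 markers of T and NK cells, Cd3e, Cd3g and Gzma were listed at 0 in every cell, Klrb1c was seen in 5 cells of mouse 1 and 0 of mouse 2, and Nkg7 averaged 1529.9 and 841 TPM and was seen in 43 and 38 cells. The 5 erythroid markers had a median sum of 813 TPM in the rest of mouse 1, 197 TPM in the rest of mouse 2 and at most 5.77 TPM in the other states; the part of these cells in the reference levels was not tested.

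The states differed in how much of the transcriptome was seen. The median number of detected genes was 3606 per cell in mouse 1 and 3083 in mouse 2. The median was 2922 in H2-Aa cells, 4463 in Mpo cells and 3588 in the rest of mouse 1, and 2581, 2821, 4041 and 4252 in the H2-Aa, S100a8, Mpo and rest cells of mouse 2. The top 10 genes by TPM in each cell took a median of 54.8% of its TPM in the S100a8 cells of mouse 2, 22.4% and 24.2% in the H2-Aa cells of the 2 mice, and 8.93% and 9.18% in the Mpo cells. These values move with several of the differences below; their part in those differences was not tested beyond the adjusted values given beside them.

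Core transcripts were more abundant than those of the 17 regulatory particle genes in nearly every cell. The choice by symbol leaves out the lid gene Shfm1 and the ubiquitin receptor gene Adrm1. Shfm1 averaged 750 TPM in mouse 1 and 801 TPM in mouse 2, above every core gene. Adrm1 averaged 57.8 and 34.8 TPM. The particles were not compared with these genes added. Averaged over its 14 genes, the core stood at 458 TPM in mouse 1 and 409 TPM in mouse 2, and the regulatory particle, over its 17 genes, at 178 and 120 TPM. Within single cells the mean core level had a median of 456 TPM (lowest 183, highest 809) in mouse 1 and 411 TPM in mouse 2 (lowest 36.1, highest 806). The mean regulatory particle level had a median of 180.5 TPM (lowest 31.9, highest 397) in mouse 1 and 105 TPM in mouse 2 (lowest 0.12, highest 280). The core mean was the higher one in 47 of 48 cells of mouse 1 and in 48 of 48 cells of mouse 2. The difference of the log2 values, core minus regulatory particle, had a median of 1.28 in mouse 1, with quartiles of 0.82 and 1.79, and of 1.76 in mouse 2, with quartiles of 1.11 and 2.25, which correspond to ratios of 2.42 and 3.39.

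**Figure D1:**
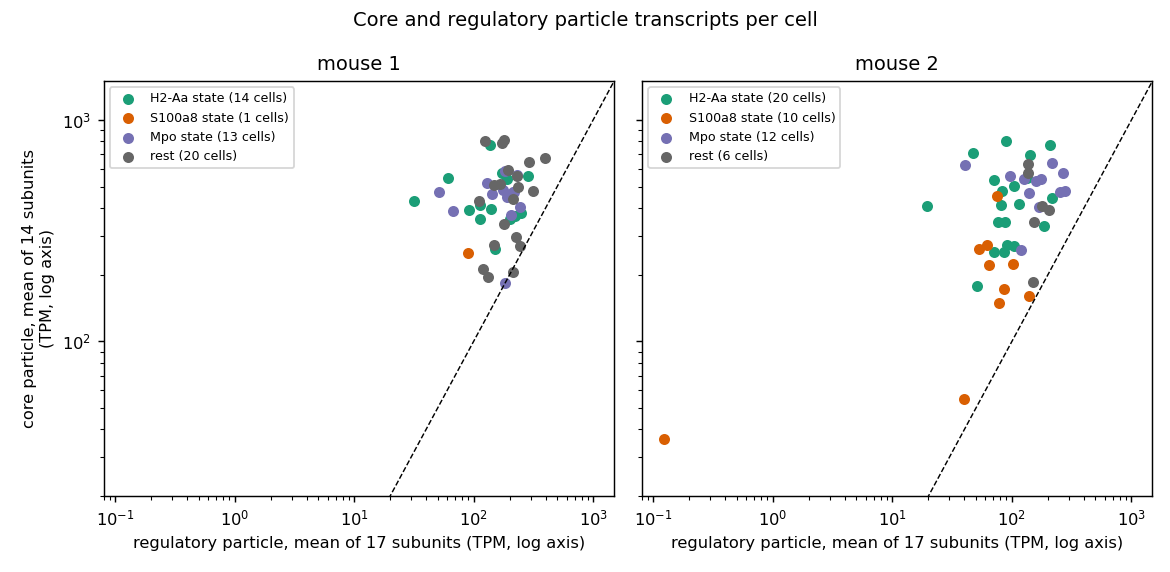
Mean TPM of the 14 core genes (vertical, log axis) against mean TPM of the 17 regulatory particle genes (horizontal, log axis), one point per cell, coloured by state, for each mouse; the dashed line marks equal levels. Points lie above the line in 47 of 48 and 48 of 48 cells, and a single S100a8 cell of mouse 2 lies far to the left, at 0.12 TPM of regulatory particle.

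Detection followed the same order. Of all core values, 89% in mouse 1 and 86.6% in mouse 2 were detected, against 66.2% and 57.2% of regulatory particle values. By role, the share was 91.7% and 89.6% for the alpha ring, 86.3% and 83.6% for the beta ring, 70.5% and 56.9% for the ATPase ring, 69.4% and 59.7% for the other base genes, and 61.7% and 56.5% for the lid. A cell showed a median of 13 of the 14 core genes in either mouse, and a median of 11 of the 17 regulatory particle genes in mouse 1 and 9.5 in mouse 2. All 14 core genes were seen in 13 cells of mouse 1 and 14 of mouse 2, whereas all 17 regulatory particle genes were seen in 1 and 2 cells.

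**Figure D2:**
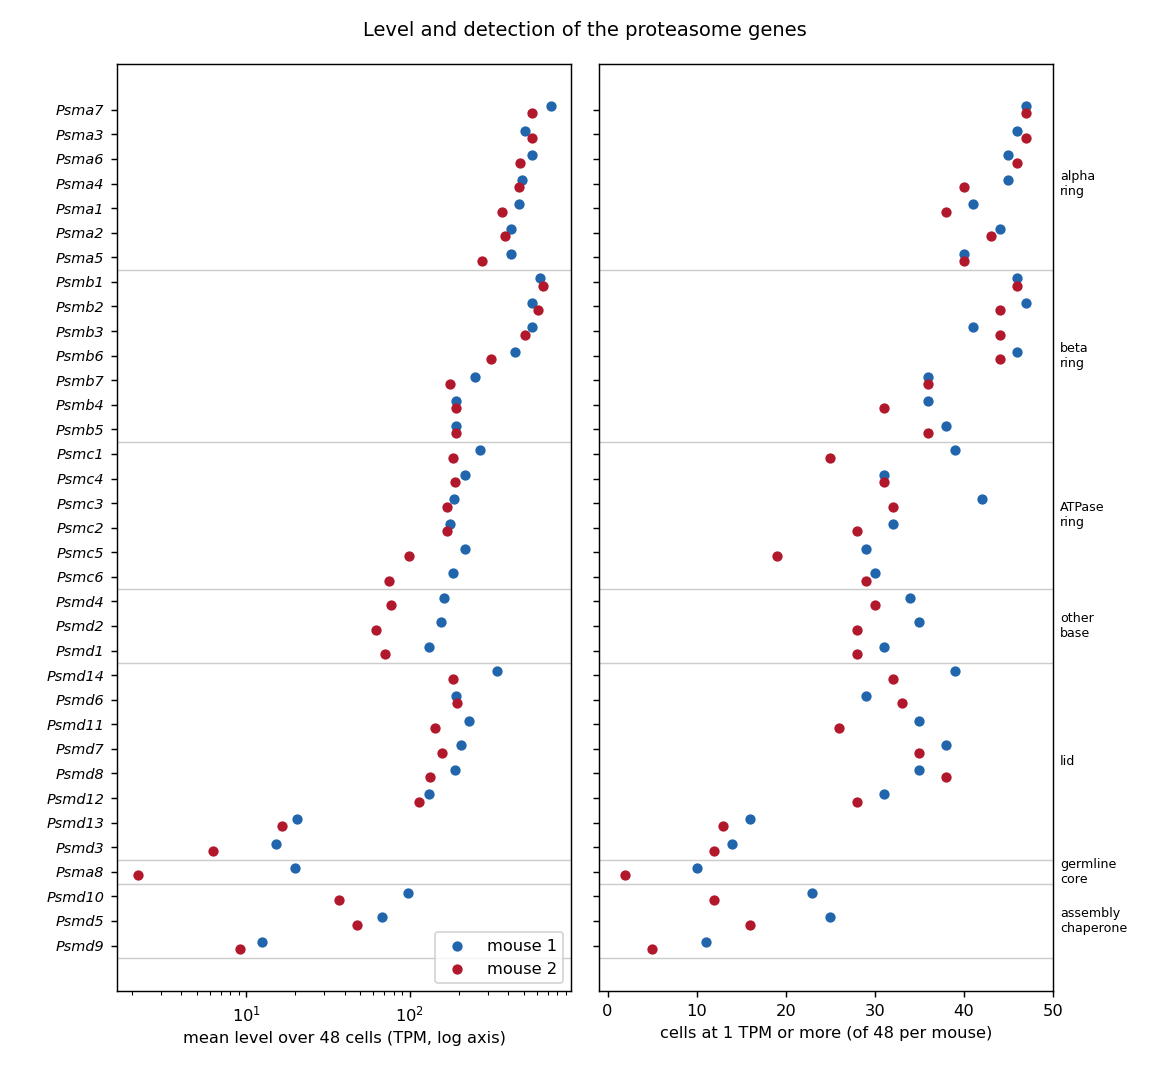
Mean TPM over the 48 cells of each mouse (left, log axis) and number of cells in which the gene was detected (right) for each of the 35 genes, grouped by role; blue is mouse 1 and red is mouse 2. Core genes sit to the right in both panels, and Psmd3, Psmd13, Psma8 and Psmd9 sit at the low end.

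In the alpha ring, Psma7 was the most abundant gene over all cells. It ran from 0 to 1952 TPM in mouse 1, with a median of 637, and from 0 to 2218 TPM in mouse 2, with a median of 394. It was detected in 47 of 48 cells of either mouse, and the mice overlapped over nearly the whole range. Psma5, the lowest alpha ring gene, had a median of 304 TPM and a highest value of 2407 TPM in mouse 1, and a median of 80.5 and a highest value of 1599 TPM in mouse 2, and was detected in 40 of 48 cells of either.

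The beta ring divided into abundant and less abundant genes. Psmb1, a beta subunit without a cutting site, averaged 630.0 ± 509 TPM in mouse 1 and 652 ± 657 TPM in mouse 2 (SD, n = 48 cells). Psmb4, also without one, averaged only 192 and 193 TPM and was detected in 36 and 31 cells. The catalytic genes lay below Psmb1, Psmb2 and Psmb3 in both mice. Psmb6, the caspase-like subunit, averaged 442 ± 353 TPM in mouse 1 and 314 ± 320 TPM in mouse 2 (SD, n = 48 cells). Psmb7, the trypsin-like subunit, averaged 252 ± 295 and 177 ± 290 TPM (SD, n = 48 cells). Psmb5, the chymotrypsin-like subunit and main target of proteasome inhibitors, averaged 193 ± 204 and 192 ± 255 TPM (SD, n = 48 cells), the lowest of the ring over all cells. The SD of each of them was close to its mean or above it, and each was listed at 0 in at least 1 cell of each mouse.

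The ATPase ring genes were closer together in mouse 1 than in mouse 2. Psmc1 averaged 269 TPM in mouse 1, with a median of 199 and a highest value of 1014, and 183 TPM in mouse 2, with a median of 2.38 and a highest value of 3113. The mean of mouse 2 came from fewer cells: those with detected Psmc1 numbered 39 in mouse 1 and 25 in mouse 2. Psmc6, the lowest of the ring over all cells, averaged 184 and 74.2 TPM and was detected in 30 and 29 cells. Of the other base genes, Psmd4, a ubiquitin receptor, averaged 161 and 76.6 TPM, and Psmd1, a large scaffold subunit, 131 and 70.7 TPM.

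Within the lid, the highest gene was Psmd14 in mouse 1 and Psmd6, at 194 TPM, in mouse 2, and the lowest was Psmd3 in both. Psmd14, which encodes the deubiquitinase of the lid, averaged 340 TPM in mouse 1 (median 142, highest 1889) and 185 TPM in mouse 2 (median 24.1, highest 1378). Psmd3 and Psmd13, scaffold subunits of the same lid, stood far lower, at 15.1 and 20.4 TPM in mouse 1 and 6.29 and 16.7 TPM in mouse 2. Psmd3 was detected in 14 and 12 cells and Psmd13 in 16 and 13 cells, with highest values of 124 and 326 TPM in mouse 1. Low detection of a lid transcript in a single cell does not show that the protein was missing.

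The genes outside the finished particle were detected less often than most subunit genes. Psma8, a core gene known from the germline and a close relative of Psma7, was detected in 10 and 2 cells of the mice, with a highest value of 399 TPM; how reads shared with Psma7 were divided is not known, and its level is uncertain. Psmd10, also known as gankyrin, averaged 97.0 and 37.1 TPM and was seen in 23 and 12 cells. Psmd5 averaged 67.4 and 47.8 TPM in 25 and 16 cells, and Psmd9 averaged 12.4 and 9.20 TPM in 11 and 5 cells.

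The order of the genes was alike in the mice: the Spearman correlation of mean TPM between mouse 1 and mouse 2 was 0.91 over the 14 core genes, 0.76 over the 17 regulatory particle genes and 0.91 over all 31. Regulatory particle transcripts are longer, with a median of 1785 bases against 1162.5 for the core, and the correlation of transcript length with mean TPM was -0.54 over the 31 genes, -0.45 within the regulatory particle and -0.02 within the core. These are correlations across genes, which share the cells. The part of length in the gap between the particles was not tested.

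Abundance of single subunits did not track closely from cell to cell. The mean pairwise Spearman correlation over 48 cells was 0.08 in mouse 1 and 0.17 in mouse 2 for the 91 core pairs, and 0.08 and 0.17 for the 136 regulatory particle pairs. Between a core and a regulatory particle gene it was 0.06 and 0.14 over 238 pairs. After removal of the number of detected genes by a linear fit, core pairs gave 0.09 and 0.12, and regulatory particle pairs gave 0.02 and 0.01. Averaged over each particle, the correlation of core and regulatory particle levels was 0.15 in mouse 1 and 0.36 in mouse 2, and the cells share depth and total. In values this sparse, coefficients of this size are no finding.

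**Figure D3:**
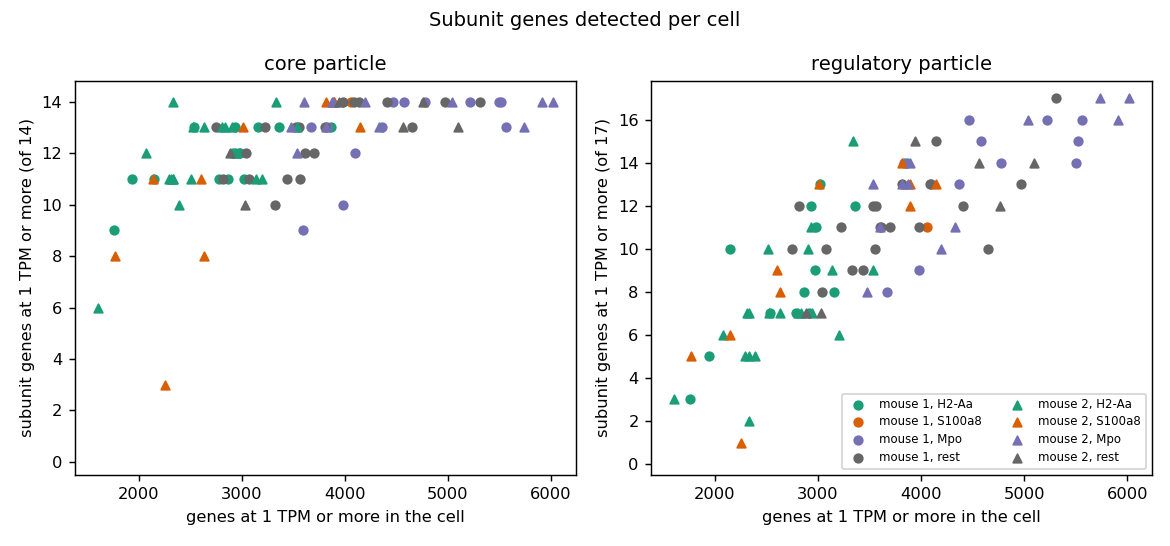
Number of core genes (left, of 14) and regulatory particle genes (right, of 17) detected in each cell, against the number of all detected genes in that cell; colours are states, circles mouse 1 and triangles mouse 2. Core counts have medians of 13 in both mice and are low in a few cells with few genes, while regulatory particle counts climb with the number of detected genes, from 1 in one S100a8 cell to 17 in one rest cell of mouse 1 and 2 Mpo cells of mouse 2.

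With the cells of all states pooled, subunit transcripts were lower in mouse 2 by about as much as widely detected genes in general. The core was lower by the same and the regulatory particle by somewhat more. The median difference of mean log2(TPM + 1), mouse 2 minus mouse 1, was -0.72 over the 31 subunit genes, -0.54 over the core and -0.81 over the regulatory particle. It was -0.20 over the 11015 genes that averaged at least 1 TPM, and -0.54 over the 2051 genes detected in 24 or more cells of both mice, called the widely detected genes. A difference of 1 or more on this scale downwards was reached by 11 of 31 subunit genes, 3 core and 8 regulatory particle, and upwards by 0. Of the 11015 genes, 11.6% were lower and 1.59% higher by that much, and of the widely detected genes, 25.8% were lower and 2.63% higher. After removal of the number of detected genes, the medians were -0.20 for the core and -0.29 for the regulatory particle. By that step, 7 genes were lower by 1 or more. Centred instead on the widely detected genes, 5 were. The mice differed in their mix of states, with 1 and 10 S100a8 cells and 20 and 6 rest cells. The mean core level per cell had medians of 404 and 416 TPM in H2-Aa cells of mouse 1 and mouse 2. It had medians of 474 and 535 TPM in Mpo cells, but 488 and 401 TPM in the rest. Regulatory particle medians were 146 and 88.7, 184 and 163, and 188 and 152 TPM, in the same order. The part of the mix in the pooled differences was not tested.

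The 3 genes with the lowest differences all belonged to the ATPase ring or to the assembly of the particle. Psmc1 differed by -2.30, Psmc5, another ATPase, by -1.93 and the chaperone gene Psmd10 by -1.77. The median of Psmc5 was 114 TPM over the cells of mouse 1 but 0.74 TPM over those of mouse 2, and it was detected in 29 and 19 cells. At the other end, the lid gene Psmd6 differed by 0.24, Psmb2 by 0.14 and Psmb3 by -0.05. Psmb2 ran from 0 to 2324 TPM in mouse 1, with a median of 426, and from 0 to 2877 TPM in mouse 2, with a median of 472. For all of these genes the cells of the mice overlapped.

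**Figure D4:**
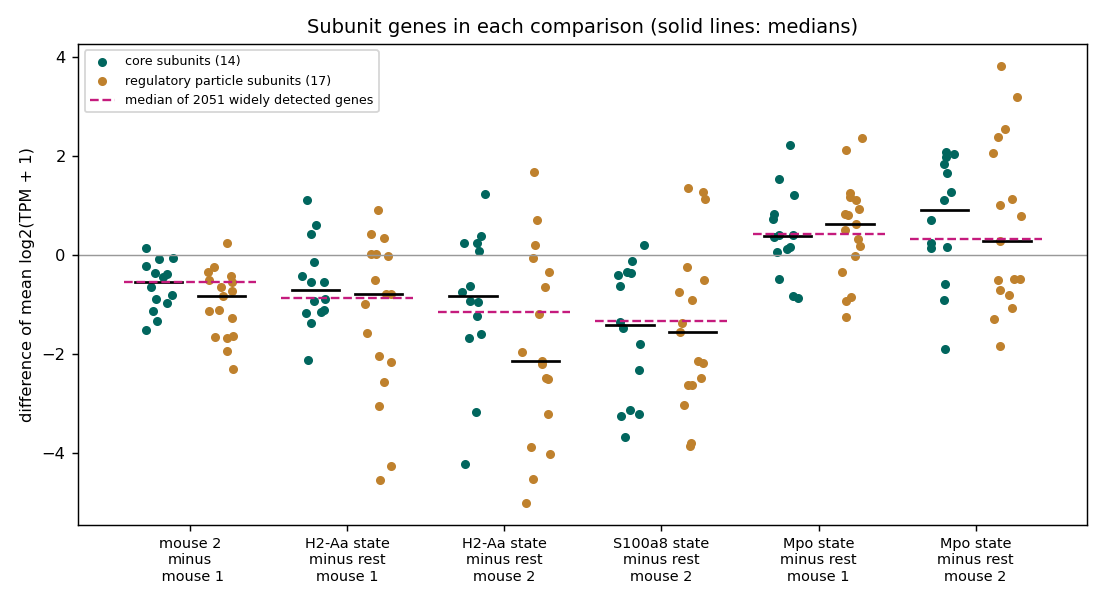
Difference of mean log2(TPM + 1) of each core gene (green) and regulatory particle gene (brown) in the 6 comparisons; black lines are group medians and the dashed line is the median of the 2051 widely detected genes. In the mouse 1 comparisons and in the S100a8 state, group medians lie near the dashed line; in mouse 2 the regulatory particle lies below it in the H2-Aa state and the core above it in the Mpo state.

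On the log2 scale, the median subunit gene was lower in H2-Aa cells than in the rest of both mice, and so was the median widely detected gene. The median difference over the 31 genes was -0.79 in mouse 1 and -1.19 in mouse 2; the widely detected genes had medians of -0.86 and -1.14. In mouse 1 the core and regulatory particle medians were -0.71 and -0.79, and in mouse 2 they were -0.83 and -2.14. The mean core level per cell did not show this in both mice: its median was 404 TPM in H2-Aa cells and 488 TPM in the rest of mouse 1, but 416 and 401 TPM in mouse 2. The mean regulatory particle level had medians of 146 and 188 TPM in mouse 1 and 88.7 and 152 TPM in mouse 2. With each cell rescaled without its 10 most abundant genes, the core medians were 529 and 536 TPM in mouse 1 and 547 and 445 TPM in mouse 2. The rescaled regulatory particle medians were 193 and 205 TPM in mouse 1 and 118 and 165 TPM in mouse 2. In mouse 1, 12 of 31 subunit genes were lower by 1 or more and 1 was higher, where 30.2% of the 11015 genes were lower and 8.52% higher, and 46.2% and 13.7% of the widely detected ones. In mouse 2, 16 were lower and 2 higher, where 38% of the 11015 genes were lower and 7.82% higher, and 52.6% and 11.8% of the widely detected ones. With detected-gene number removed, the core and regulatory particle medians became -0.02 and 0.21 in mouse 1 and 0.53 and -0.02 in mouse 2. By that step the counts of lower genes became 4 in mouse 1 and 6 in mouse 2. The rest of mouse 2 was only 6 cells, and without H2-Aa cell 8 the median of mouse 1 was -0.47.

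Of the 31 genes, 16 were below the rest in both mice and 1 was above in both, where 5568 and 1669 of the 11015 genes and 1245 and 347 of the 2051 widely detected genes were. Psma5, Psmc1, Psmc2, Psmc5, Psmc6 and Psmd12 were lower by 1 or more in both, which is 6 of 31 or 19.4%, against 19.3% of the 11015 genes and 34.9% of the widely detected ones; the share is that of the background and is no result about the subunit genes. Psmc1 in mouse 1 had a median of 15.2 TPM in 14 H2-Aa cells (lowest 0, highest 936) and 262 TPM in 20 rest cells (lowest 0, highest 1014). In mouse 2 it had a median of 0 in 20 H2-Aa cells (lowest 0, highest 3113) and 114 TPM in 6 rest cells (lowest 0.90, highest 738). The differences of mean log2 values were -3.05 and -4.01, although the ranges overlapped in both mice and the highest value of mouse 2 was in an H2-Aa cell. On the linear scale the means were 166 TPM in H2-Aa cells and 379 TPM in the rest of mouse 1, but 215 and 223 TPM in mouse 2. Psmc1 was detected in 10 of 14 and 18 of 20 of these cells in mouse 1, and in 6 of 20 and 5 of 6 in mouse 2.

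The chaperone gene Psmd5 was seen in 2 of 14 H2-Aa cells against 13 of 20 rest cells in mouse 1, and in 3 of 20 against 6 of 6 in mouse 2. Its highest value in H2-Aa cells was 51.95 and 55.3 TPM, against 937 and 676 TPM in the rest, and the differences were -2.77 and -5.79. Psma2, an alpha ring gene, was the one subunit gene above the rest in both mice on the log2 scale. It was seen in 14 of 14 H2-Aa cells of mouse 1 (lowest 3.63, median 242, highest 1288 TPM) and in 18 of 20 of mouse 2 (lowest 0, median 264, highest 1248 TPM). In the rest it was seen in 17 of 20 cells of mouse 1 (median 332 TPM) and 5 of 6 of mouse 2 (median 165 TPM). Its differences were 0.60 and 0.24, both under 1. On the linear scale its mean was lower in H2-Aa cells of mouse 1, 350 against 426 TPM. In mouse 2 the means were 379 and 371 TPM.

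In Mpo cells, the median subunit gene was level with or above the rest on the log2 scale. The median over the 31 genes was 0.40 in mouse 1 and 0.71 in mouse 2, against 0.42 and 0.32 for the widely detected genes. In mouse 1 the core and regulatory particle medians were 0.38 and 0.63, and in mouse 2 they were 0.91 and 0.28. Of the 17 regulatory particle genes, 5 were below the rest in mouse 1 and 8 in mouse 2. The mean levels per cell were not above the rest in both mice. In Mpo cells of mouse 1 the mean core and regulatory particle levels had medians of 474 and 184 TPM, under those of its rest given above. Both were above the rest in mouse 2. In mouse 1, 8 genes were higher by 1 or more and 1 lower, where 21.8% of the 11015 genes were higher and 5.68% lower, and 31.3% and 5.22% of the widely detected ones. In mouse 2, 14 were higher and 4 lower, where 21.3% were higher and 15.5% lower, and 29.4% and 14.7% of the widely detected ones. With detected-gene number removed, the medians were -0.08 and -0.10 in mouse 1 and 0.51 and -0.41 in mouse 2. The 8 genes higher in mouse 1 became 1 by that step. The medians rested on few cells: in mouse 2 the median was 0.02 without rest cell 52, and between 0.33 and 0.46 without Mpo cell 55, 58, 67 or 82 or rest cell 88, and in mouse 1 it was 0.73 without Mpo cell 23 and 0.64 without Mpo cell 41. Mpo, H2-Aa and S100a8 comparisons of a mouse share the same rest cells.

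Psmd2, a large scaffold subunit of the base that binds shuttle proteins, was the single subunit gene higher by 1 or more in Mpo cells of both mice, by 1.12 and 3.82. That is 3.23% of the 31 genes, where 7.57% of the 11015 genes and 12.9% of the widely detected ones were higher by as much in both. In mouse 1 it had a median of 49.4 TPM in 13 Mpo cells (lowest 0.21, highest 613) and 38.3 TPM in 20 rest cells (lowest 0, highest 1299). In mouse 2 it had a median of 58.4 TPM in 12 Mpo cells (lowest 0.40, highest 409.6) and 0.26 TPM in 6 rest cells (lowest 0, highest 128). On the linear scale its mean was higher in the rest of mouse 1, 186 against 136 TPM. The scarce lid gene Psmd3 differed by 0.93 and 1.02, seen in 6 of 13 and 6 of 12 Mpo cells against 4 of 20 and 1 of 6 rest cells. Psmc1 was lower in Mpo cells by 1.25 and 1.83 in the 2 mice, again 1 gene of 31 where 1.63% and 1.51% were lower in both, and Psmc2, also an ATPase, had differences of -0.93 and -0.80. Set against all cells outside the state rather than the rest, Psmc1 turned to 0.04 and 0.78.

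In the S100a8 cells of mouse 2, subunit levels were lower than in the rest, again by about the median of widely detected genes. The mean core level had a median of 196 TPM in 10 S100a8 cells (lowest 36.1, highest 454) and 401 TPM in 6 rest cells (lowest 186, highest 636). The mean regulatory particle level had a median of 70.2 TPM (lowest 0.12, highest 139) against 152 TPM (lowest 136, highest 203). With each cell rescaled without its 10 most abundant genes, the core medians were 376 and 445 TPM and the regulatory particle medians 143 and 165 TPM. The median difference over the 31 genes was -1.47, with -1.41 for the core and -1.55 for the regulatory particle, and -1.34 over the widely detected genes. Of the 31, 18 were lower by 1 or more and 3 higher, where 36.1% of the 11015 genes were lower and 10.3% higher, and 57.2% and 11.2% of the widely detected ones. With detected-gene number removed, 10 were lower. Without rest cell 94 the median was -0.92. The single S100a8 cell of mouse 1, where Mpo was far above S100a8, had a mean core level of 251 TPM and a mean regulatory particle level of 90.2 TPM.

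Psmd14 was among the genes with the largest gap. It lay between 0 and 60.4 TPM in S100a8 cells, with a median of 8.25, and between 0.87 and 629 TPM in the rest, with a median of 249.96, a difference of -3.84. Psmd5 was seen in 2 of 10 S100a8 cells and in 6 of 6 rest cells, a difference of -5.30. Psmd2 and the lid gene Psmd11 were the highest, by 1.36 and 1.27, but both were seen in only 2 of 6 rest cells. Against all cells of mouse 2 outside the state they were at -0.22 and -0.62.

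The excess of core over regulatory particle was present in every state. Its median in mouse 1 was 1.57 in H2-Aa cells (lowest 0.60, highest 3.71), 1.28 in Mpo cells (lowest 0.01, highest 3.17) and 1.07 in the rest (lowest -0.05, highest 2.69). In mouse 2 it was 1.99 in H2-Aa cells (lowest 0.85, highest 4.33), 1.43 in S100a8 cells (lowest 0.21, highest 5.05), 1.596 in Mpo cells (lowest 0.78, highest 3.91) and 1.18 in the rest (lowest 0.30, highest 2.21). H2-Aa cells had the highest median and the rest the lowest in both mice, and the states overlapped widely.

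**Figure D5:**
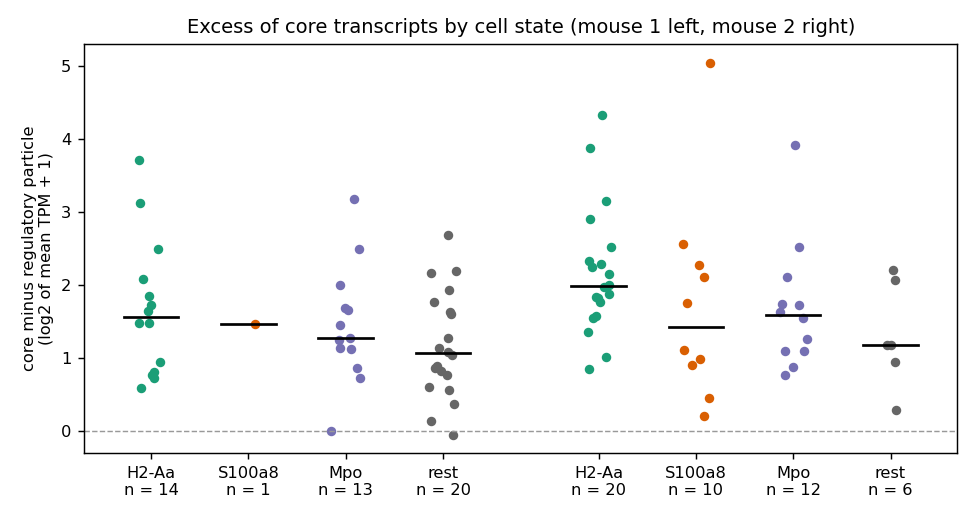
Core minus regulatory particle, on the log2 scale of the mean TPM plus 1, for each cell by state, mouse 1 on the left and mouse 2 on the right; black lines are medians and the dashed line is equality. Medians run from 1.07 in the rest of mouse 1 to 1.99 in the H2-Aa cells of mouse 2, and 1 S100a8 cell of mouse 2 stands at 5.05.

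The inducible catalytic genes made up the larger part of the catalytic transcripts in every compared state except the rest of mouse 2. The share of Psmb8, Psmb9 and Psmb10 in their sum with Psmb5, Psmb6 and Psmb7 had a median of 76% in H2-Aa cells, 69.4% in Mpo cells and 60.8% in the rest of mouse 1, and of 70.1%, 58.1% and 38.1% in those of mouse 2, with 56.7% in its S100a8 cells. By gene, Psmb8 averaged 1131 and 890 TPM in the 2 mice against 193 and 192 TPM for Psmb5. Psmb9 averaged 440 and 478 TPM against 442 and 314 TPM for Psmb6. Psmb10 averaged only 158 and 83.1 TPM against 252 and 177 TPM for Psmb7. In H2-Aa cells Psmb8 differed from the rest by 2.23 and 3.61, Psmb9 by 1.37 and 1.86 and Psmb10 by -1.02 and -1.79. In Mpo cells Psmb8 differed by 1.41 and 3.20, Psmb9 by -0.31 and 1.68 and Psmb10 by -0.49 and 0.44. In S100a8 cells of mouse 2 they differed by -0.99, -1.27 and -2.98, in the same order. The rest of mouse 2 was 6 cells.

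Among partners of the particle, the activator genes Psme1 and Psme2 averaged 950.2 and 806 TPM in mouse 1 and 1096 and 575 TPM in mouse 2, where Psme2 lay below the subunit genes Psmb1 and Psmb2. Of the 5 activator and inhibitor genes, 0 differed by 1 or more between the mice, and in H2-Aa cells 2 were higher in mouse 1 and 1 in mouse 2, Psme2 being higher in both, by 2.31 and 1.22. Of the 5 core assembly chaperone genes, Pomp was the most abundant at 837 and 771 TPM and was higher in H2-Aa cells by 2.67 and 1.31. In each mouse 3 of the 5 were lower by 1 or more in H2-Aa cells, but not the same 3. They were Psmg1, Psmg2 and Psmg3 in mouse 1, and Psmg1, Psmg2 and Psmg4 in mouse 2. Psmg3 was at -3.68 in mouse 1 and 1.66 in mouse 2. Of 12 further subunit and receptor genes, 3 were lower by 1 or more in mouse 2 than in mouse 1, and in H2-Aa cells 3 were lower in mouse 1 and 9 in mouse 2. Shfm1, which encodes the smallest lid subunit, was the most abundant of them at 750 and 801 TPM and was seen in 47 cells of either mouse. These counts stand against the shares of the 11015 genes given above, 11.6% lower in mouse 2 and, in H2-Aa cells, 30.2% and 38% lower and 8.52% and 7.82% higher, and on lists this short nothing is read from them.

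The 7 genes listed as regulators of proteasome genes averaged at most 101 TPM in mouse 1 and 104 TPM in mouse 2. Of them, 1 was lower by 1 or more in mouse 2 than in mouse 1, and 3 were lower in H2-Aa cells of each mouse, where 11.6% of the 11015 genes were lower in mouse 2 and 30.2% and 38% in H2-Aa cells. Nfe2l1, which encodes the transcription factor known to raise proteasome genes when the proteasome is inhibited, averaged 5.65 and 28.4 TPM and was seen in 15 and 18 cells. Its relative Nfe2l2 averaged 101 and 104 TPM and was lower in H2-Aa cells by 3.56 and 1.98. Of 6 genes of ubiquitin and its activation, 2 were lower by 1 or more in mouse 2; Ubb, a ubiquitin gene, averaged 10012 and 7331 TPM and was seen in 48 of 48 cells of either mouse. Of 4 genes of substrate extraction, 0 differed by 1 or more between the mice, and Vcp, the extraction ATPase, was the most abundant at 131 and 174 TPM. The mean regulatory particle level had a Spearman correlation of 0.48 and 0.36 with the summed level of 10 S phase genes over the 48 cells of each mouse. The core mean had one of 0.28 and 0.02. With the summed level of G2 and M phase genes, the regulatory particle gave 0.15 and 0.10 and the core 0.12 and -0.02. With the number of detected genes, the regulatory particle gave 0.19 and 0.54. Nothing is read from these coefficients. Of the 10 S phase genes, 9 and 10 were lower by 1 or more in H2-Aa cells, against 30.2% and 38% of the 11015 genes.

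Promoter windows of 250 bases before to 50 after the start, from RefSeq on GRCm38.p6, were found for 28 of the 35 genes. The letters TGACNNNGC, the core of the antioxidant response element to which Nfe2l1 and Nfe2l2 bind, were searched on both strands. They were in 5 of 28 genes, or 17.9%, against 14% of 27025 genes. The letters CCAAT, also searched on both strands, were in 11 of 28 genes, or 39.3%, against 41.1%, in 6 of 11 core genes and 4 of 14 regulatory particle genes. The 4 subunit genes with TGACNNNGC are shown, as they are all the core and regulatory particle genes with a match; capitals mark the match, in the direction of transcription, and the last pair holds it on the opposite strand.
Psmb5, chr14:54618014-54618062, minus strand: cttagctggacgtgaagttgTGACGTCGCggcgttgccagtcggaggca
Psmb6, chr11:70525328-70525356, plus strand: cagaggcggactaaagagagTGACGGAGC
Psmc6, chr14:45329577-45329625, plus strand: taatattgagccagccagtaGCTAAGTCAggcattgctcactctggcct
Psmd12, chr11:107479278-107479309, plus strand: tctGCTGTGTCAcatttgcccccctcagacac
Psmb5 and Psmb6 are catalytic genes of the beta ring, Psmc6 an ATPase and Psmd12 a lid scaffold. The first base of the match lay 47 bases before the start in Psmb5 and 9 in Psmb6, and 227 and 247 in Psmc6 and Psmd12. In mouse 2 minus mouse 1 these 4 genes differed, in the same order, by -0.64, -1.32, -1.13 and -0.54, and in H2-Aa cells of mouse 1 by -2.12, 0.43, -1.56 and -2.56. In H2-Aa cells of mouse 2 they differed by 0.09, -3.17, -2.48 and -1.19, so that Psmb5 and Psmb6 each were lower by more than 1 in one mouse but not in the other.

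The second deposited table, of RPKM values, listed all 35 genes. For 32 of the 35 the median over cells was the floor value of the gene. The other 3 were Psma3, Psma7 and Psmd2, above the floor in 49, 53 and 79 of 96 cells. Psmd2 had mean RPKM of 846 and 349 in the 2 mice and a correlation of 0.97 with its log2 TPM values. The genes other than Psmd2 were above the floor in 3 to 53 cells, with correlations of 0.12 to 0.59.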

How the data were processed

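Each library was 1 cell captured on a Fluidigm C1 chip, per the labels' protocols. The authors deposited TPM values for 23955 gene symbols and RPKM values for 9310 Ensembl identifiers; the RPKM of most genes sat at a floor in most cells. The tools RSEM, TopHat2 and Bowtie2 and the builds mm9 and mm10 are named in the submitters' processing notes; which belongs to which table is not given in the sources used here. TPM keeps no read depth, so depth is unknown, and the count of detected genes (1 TPM or above) is used instead.

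The members, lists and tests were chosen with earlier results of these data known. Values were taken as log2(TPM + 1), which understates the change of low genes, and differences are of means over cells. A difference of 1 or more was counted, beside all 11015 genes averaging at least 1 TPM and the 2051 seen in 24 or more cells of each mouse. A state with under 5 cells was not compared. The genes named are the catalytic ones, the most and least abundant of each role group, the 3 highest and 3 lowest between the mice, the highest and lowest with the same sign in both mice for each state, and the genes outside the finished particle; of the partner lists only part of the genes the rule takes are named, and other genes named were chosen after their values were seen. Over the states, summed marker medians ran from 0 to 813 TPM for erythroid cells, from 0 to 318 TPM for megakaryocytes, mast cells and basophils, B cells and stromal and endothelial cells, from 3.00 to 1022 TPM for stem and early progenitors, from 15.3 to 19192 TPM for monocytes, from 139.9 to 102748 TPM for granulocyte-monocyte progenitors and from 1.61 to 7476 TPM for T and NK cells, where the sum was nearly all Nkg7. The 318, 102748 and 7476 TPM were values of 1 cell, the single S100a8 cell of mouse 1. In states with more cells the highest medians of these lists were 229.9 TPM (mast cells and basophils), 13830 TPM and 2159 TPM, all in Mpo cells. Transcript lengths were from GENCODE M21 (GRCm38). A protein comparison was not run. No doublet caller was run, as chambers had been scored by eye per the labels' protocols. The scripts were tested on simulated data. Python 3.11.15, numpy 2.4.6, pandas 2.3.3, scipy 1.17.1 and matplotlib 3.10.9 were used. Alternatives covered the pseudocount, scaling, cells, members, threshold and table.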

Additional observations from a re-analysis of the deposited data

Results flagged for a closer look

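In the S100a8 cells of mouse 2, 1 of 10 cells stood apart from the others in core minus regulatory particle. It was at 5.05 on the log2 scale, where the next highest was 2.57. Its mean regulatory particle level was 0.12 TPM, under the pseudocount of 1, so the size of the value depends on the pseudocount. How often chance sets a cell so far apart was not tested. That cell showed 3 of 14 core and 1 of 17 regulatory particle genes, and 2257 genes in all.

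In Mpo cells against the rest, Psmd10 and Psmd5 had opposite signs in the mice, and the difference between the mice was not tested. Psmd10 was at -1.17 in mouse 1 and 1.82 in mouse 2, which differ by 2.99. Psmd5 was at 1.20 in mouse 1 and -3.60 in mouse 2, which differ by -4.79; it was seen in 9 of 13 Mpo and 13 of 20 rest cells of mouse 1, and in 5 of 12 and 6 of 6 of mouse 2.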

How the results depend on the processing

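No paired analysis was possible because the replicate numbers are cell numbers and no result comes from a test. Core minus regulatory particle kept its sign in both mice under every alternative on the TPM table. It was 2.75 and 3.84 for the median over subunits in place of the mean. In the RPKM table, where most genes sat at the floor, it turned to -2.20 and -0.30. There the regulatory particle mean includes Psmd2, which averaged 846 RPKM in mouse 1 and 349 in mouse 2. The highest mean of any other subunit gene was 4.11 RPKM in mouse 1 and 11.5 in mouse 2. The RPKM difference without Psmd2 was not computed. In the RPKM table the mouse difference was -0.0053 and the S100a8 median turned to 0.0037. Counts of subunit genes lower in mouse 2 were 6 with a pseudocount of 10, 1 in the RPKM table, 5 on linear means, 7 with detected-gene number removed and 5 centred on widely detected genes. The H2-Aa median of mouse 1 turned to 0.0185 without the cells in the lowest quartile of detected genes, 0.0612 with detected-gene number removed and 0.0737 when centred, with counts in these settings of 7 (pseudocount of 10), 0 (RPKM), 3 (linear), 4 (removed) and 7 (centred); in mouse 2 the counts were 1 (RPKM), 7 (linear), 6 (removed) and 10 (centred). S100a8 counts were 1 (RPKM), 10 (removed) and 10 (centred). The Mpo median of mouse 1 turned to -0.0902 (linear), -0.0990 (removed) and -0.0186 (centred), with counts of 4 (pseudocount of 10), 1 (RPKM), 0 (linear), 1 (removed), 4 (centred) and between 5 and 11 when single cells were left out; in mouse 2 the counts were 1 (RPKM), 7 (linear) and 27 against all cells outside the state. Against all cells outside the state, a setting chosen after seeing the data like the leaving out of single cells, Psmd2 and Psmd11 in S100a8 cells turned to -0.22 and -0.62 and Psmc1 in Mpo cells to 0.0399 and 0.778; Psmd2 in Mpo cells of mouse 1 turned to -0.45 on linear means. Beyond what these settings change by construction, the cause was not tested. Leaving out 1 cell moved medians by over 1.5 times for cell 8 (H2-Aa, mouse 1, -0.47), cell 94 (S100a8, -0.92), cells 23 and 41 (Mpo, mouse 1, 0.73 and 0.64), and cells 52, 55, 58, 67, 82 and 88 (Mpo, mouse 2, 0.02, 0.46, 0.40, 0.45, 0.33 and 0.45). Over all alternatives to these comparisons' values, 166 stayed within the limits set, 29 moved past them and 9 turned in sign. The limit was the SD over genes for a median difference, the SD over cells for core minus regulatory particle, and 1.5 times for a count. These limits are wide: the Mpo median of mouse 2 counts as staying though it fell from 0.71 to 0.02 without cell 52. The tally is therefore no measure of how firm the values are. Depth per cell is unknown, and a level of 0 says only that a gene is listed at 0.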
